A study of Mus musculus with 346 samples.

Results

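Luminal epithelial cells of the pubertal mouse mammary gland were compared by whether they carried reads of Ly6d, which encodes a small surface protein anchored by a lipid. Cells were called luminal when keratin Krt8 or Krt18 stood above 40 RPKM, the reads per 1000 bases of gene and 1000000 reads of the cell, and the basal keratin Krt14 stood at or below 40 RPKM. Of 136 pubertal cells, 119 passed a coverage filter of 100000 reads and 1500 genes, and 80 of these were luminal (67.2%, 95% interval 58.0 to 75.6). Of the 80, 47 had Ly6d at 50 counts per 1000000 reads (CPM) or more (58.8%, 47.2 to 69.6) and are called Ly6d-high cells, 26 had no Ly6d read (32.5%, 22.4 to 43.9) and are called Ly6d-0 cells, and 7 lay between (8.75%, 3.59 to 17.2). The series holds 346 cells in all.

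All cells came from female FVB/NJ mice, an inbred laboratory strain, and were sorted as total mammary epithelium by a gate on the surface protein CD24 that left out blood and endothelial cells. Pubertal mice were 4.7 to 4.9 weeks old and adult mice, used here for a side by side contrast, 10 weeks. The series lists 8 mice at each stage. Elsewhere the number of mice is given per sort, differs between stages and spans several experiments. No cell is assigned to a mouse or experiment, so each stage is 1 sample. The values below therefore describe these cells, with no test across animals. Intervals are exact at 95% (Poisson for CPM, binomial for shares) and cover counting error only.

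The ducts of the mammary gland are lined by luminal cells of at least a pair of kinds. Hormone-sensing cells carry the receptors for estrogen and progesterone and pass the signal to their neighbours through secreted ligands, while progenitor and alveolar cells use the factor Elf5 and the receptor Kit and, under prolactin, make milk proteins. Prolactin acts through its receptor Prlr, the kinase Jak2 and the factors Stat5a and Stat5b.

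Ly6d (Entrez 17068, chromosome 15, 74762056 to 74763567 in GRCm38) chose the cells, so its level is a description. In the Ly6d-high cells it ran from 174 CPM in the lowest cell to 1619 in the median and 10641 in the highest cell. The lowest 2 of these cells had 174 and 242 CPM, and just below the threshold the highest 2 cells had 24.0 and 9.40 CPM, so no luminal cell stood near the threshold of 50 CPM. The lowest cell with any read had 3.04 CPM. Among the 47 Ly6d-high cells the level of Ly6d tracked none of the hormone-sensing genes closely. Over the 11 of them that more than 50% of these cells still showed after thinning to 100000 reads, Spearman's rho with Ly6d ran from -0.15 for Cxcl15 to 0.27 for S100a6, across cells of 1 sample.

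Both classes as a whole carried epithelial and luminal genes that the rule did not use. Epcam, an adhesion molecule of epithelia, was detected in every cell of both classes, with 1155 CPM in Ly6d-high and 1010 CPM in Ly6d-0 cells. Krt19, a luminal keratin, had 1468 and 960.5 CPM. None of 14 epithelial genes differed 4-fold or more on the log2 scale used here, which adds 5 CPM to both values. Of all 8845 genes at 10 CPM or more in either class, 11.6% were 4-fold higher in Ly6d-high cells and 9.02% lower. The keratins of the rule itself had 1276 and 1011 CPM (Krt8) and 3136 and 3292 CPM (Krt18). Krt8 and Krt18 have pseudogenes, so their counts are uncertain.

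The libraries of the classes were similar in depth but not in gene number. The median cell held 595751 reads in the Ly6d-high and 521231 in the Ly6d-0 class, with 3902 and 2954 genes detected, or 2979 and 2334 genes once the reads of each cell were drawn down at random to 100000. Mitochondrial genes took a median 10.5% and 10.9% of reads. Their part in the differences below was not tested.

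The markers by which the classes are usually told apart did so unevenly. Pgr, the progesterone receptor, had 0 CPM in the lowest and the median Ly6d-high cell and 1152 CPM in the highest, and in the Ly6d-0 class 0, 0 and 178 CPM. Summed over cells it stood at 162 CPM (157.3 to 166.9) and 14.0 CPM (12.1 to 16.1), a log2 ratio of 3.14, and after thinning it was detected in 46.8% (32.1 to 61.9) against 15.4% (4.36 to 34.9) of cells, and unthinned in 48.9% and 15.4%. Elf5, the transcription factor of alveolar cells, was the reverse, with 0.404 and 46.3 CPM and a log2 ratio of -3.25. It was detected in 1 of 47 and, unthinned, 7 of 26 cells, the highest at 631 CPM. Kit, the receptor of stem cell factor, had 0.698 and 65.5 CPM, with a log2 ratio of -3.63, and was detected in 2 of 47 and 11 of 26 cells. Single cells weighed on all 3 values. Cell 60 held 78.3% of the Ly6d-0 reads of Pgr, and cell 16 held 59.9% of those of Elf5 and 61.6% of those of Kit. When the top cell of each gene was left out of each class, the log2 ratios were 4.10 for Pgr, -2.29 for Elf5 and -2.62 for Kit. That step also moved the median log2 ratio of all genes at 10 CPM or more from 0.13 to 0.41. Pgr reads also went with the running number of the cell. Most Ly6d-high cells numbered 67 or lower had one, but of those numbered 71 or higher only cells 72, 81 and 105 did. In the Ly6d-0 class Pgr was read in cells 48, 50, 60 and 114. The median running number was 62 in the Ly6d-high and 79 in the Ly6d-0 class. Its part in the Pgr contrast was not tested.

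Prlr was high in many cells of both classes. Its lowest, median and highest values were 45.8, 2853 and 12426 CPM in Ly6d-high cells and 0, 1257 and 20078 CPM in Ly6d-0 cells, so the ranges overlapped, with a higher median in Ly6d-high cells. The summed levels were 3911 CPM (3888 to 3935) and 3284 CPM (3253 to 3314), a log2 ratio of 0.25. A single Ly6d-0 cell held 41.9% of that class's Prlr reads. Without the top cell of each class the ratio was 0.84, beside a median of 0.41 over all genes. After thinning Prlr was detected in 100% (92.5 to 100) and 88.5% (69.8 to 97.6) of cells, and unthinned in 100% and 96.2%.

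**Figure D1:**
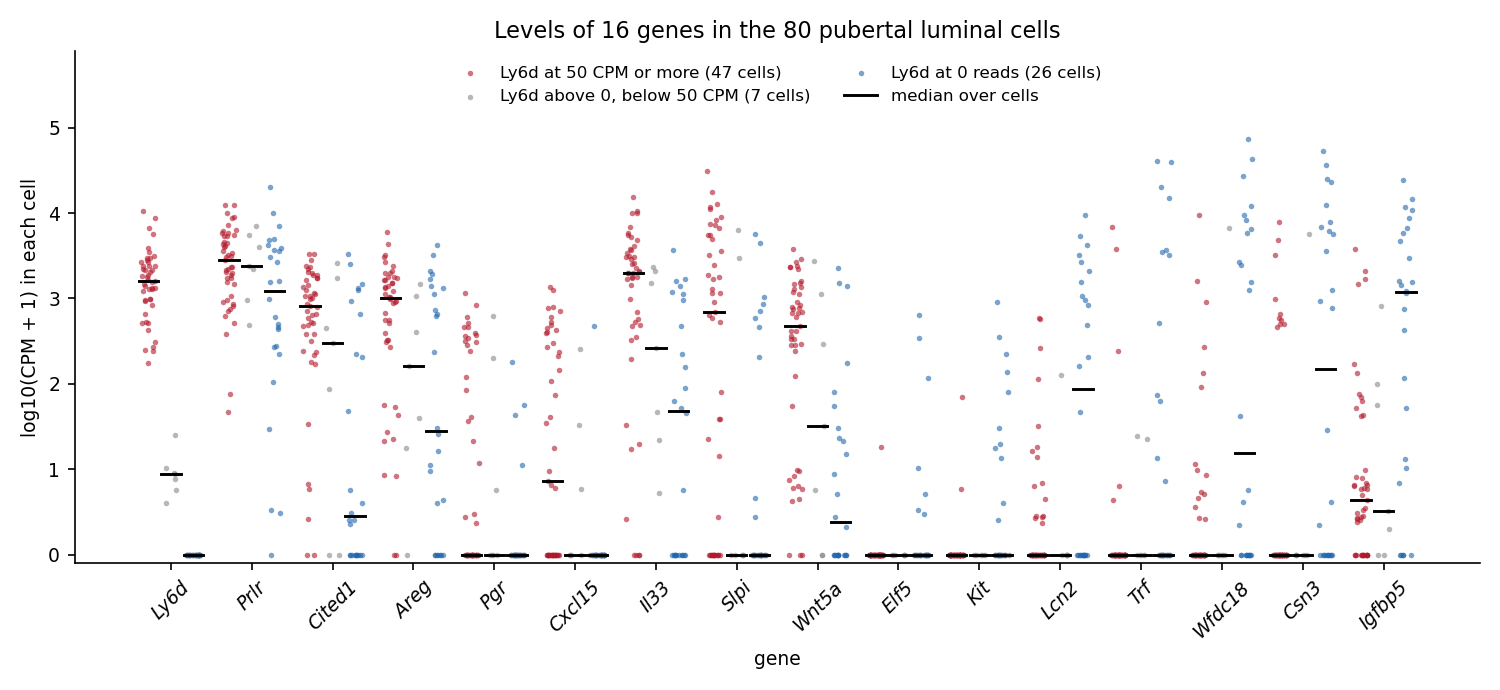
Levels of 16 genes in the 80 pubertal luminal cells, as log10(CPM + 1) for each cell, in red for Ly6d at 50 CPM or more, grey for Ly6d between and blue for Ly6d at 0 reads, with a black bar at the median. Prlr overlapped between the classes, with medians of 2853 and 1257 CPM, while Lcn2 and Csn3 had a median of 0 in Ly6d-high cells and 102 and 399 CPM in Ly6d-0 cells.

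Of the 20 genes listed as hormone-sensing, 4 were at least 4-fold higher in Ly6d-high cells and 0 were 4-fold lower, beside 11.6% of all 8845 genes at 10 CPM or more that were 4-fold higher and 9.02% that were 4-fold lower. The 4 were Pgr, Prom1, Cxcl15 and Fgb, so few genes set this list apart from the background. Of the 20 genes, 15 reached 10 CPM in at least 1 class. Over all 20, whatever their level, the median log2 ratio was 0.92, and 17 lay above 0. The 8845 genes at 10 CPM or more had a median of 0.13, and 4760 of them lay above 0. Cxcl15, a chemokine, had 202 and 29.1 CPM, and all of its Ly6d-0 reads were in a single cell, cell 60. Fgb, the beta chain of fibrinogen, had 1048 and 168 CPM, with 64.8% of the latter in cell 86. Prom1, the surface antigen CD133, had 131 and 23.1 CPM.

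Other hormone-sensing genes were read in a larger share of Ly6d-high cells, with high cells in both classes. Ly6d-high cells also detected more genes of any kind, with medians of 2979 and 2334 at 100000 reads. Cited1, a coactivator of the estrogen receptor, had 803 CPM in the median Ly6d-high cell and 1.83 CPM in the median Ly6d-0 cell, yet its highest cells were alike at 3339 and 3291 CPM. It was detected in 89.4% (76.9 to 96.5) and 46.2% (26.6 to 66.6) of thinned cells, unthinned in 95.7% and 61.5%, with summed levels of 1009 and 403 CPM. Esr1, the estrogen receptor itself, had 70.6 and 50.3 CPM and a log2 ratio of 0.45, with 31 of 47 and 7 of 26 cells carrying a read, or 18 and 6 after thinning. Cell 132 held 49.9% of the Ly6d-0 reads, and without the top cells the values were 58.8 and 26.3 CPM. Foxa1, which opens chromatin for it, had 127 and 79.8 CPM and was read in 37 and 9 cells, or 30 and 9 after thinning. Stc2, a secreted glycoprotein, had 145.6 and 65.9 CPM. Ly6a, the antigen Sca-1, had 1402 and 443 CPM. Greb1, Calca, Esrrb and the RANK ligand gene Tnfsf11 stood at 0.592 CPM or less in both classes, so these genes could not be compared at this depth.

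Downstream of the prolactin receptor no gene of the pathway was 4-fold higher and only Elf5, of the 10 listed, was 4-fold lower. Over all genes 11.6% were higher and 9.02% lower, so these counts do not set the pathway apart. Jak2 had 52.1 and 60.5 CPM. Stat5a, the main factor of milk gene transcription, had 49.1 and 9.84 CPM, a log2 ratio of 1.87, and Stat5b 10.8 and 4.37 CPM. The feedback gene Cish had a log2 ratio of 0.04, and Socs2 had 30.2 and 19.2 CPM. Among the 13 hormone receptors listed, 1 gene was 4-fold higher and 1 lower, near those shares of all genes. The higher gene was Pgr. The lower was Igf1r, the receptor of insulin-like growth factor 1, at 22.4 and 178 CPM with a log2 ratio of -2.74. A single cell held 61.5% of its Ly6d-0 reads, and without the top cells the ratio was -1.95.

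Paracrine ligands went in both directions. Wnt5a, a Wnt ligand, had 469 CPM in the median Ly6d-high and 1.42 CPM in the median Ly6d-0 cell, with summed levels of 863 CPM (852 to 874) and 211 CPM (204 to 219) and a log2 ratio of 2.00. Btc, an EGF receptor ligand, had 107 and 20.6 CPM and a log2 ratio of 2.12. Areg, the estrogen-induced EGF receptor ligand, had 1008 CPM in the median Ly6d-high and 26.8 CPM in the median Ly6d-0 cell, but summed levels of 1146 and 619 CPM. Nrg1, a ligand of Erbb3 and Erbb4, was lower with Ly6d, at 80.6 and 486 CPM, a log2 ratio of -2.52. Wnt4 had 18.7 and 36.9 CPM, a log2 ratio of -0.82. Of the 12 receptors listed for such ligands, Igf1r and Tnfrsf11a (RANK) were 4-fold lower and 0 were 4-fold higher, which is near the 9.02% and 11.6% of all genes. Of the Tnfrsf11a reads of the Ly6d-0 class, 93.8% came from a single cell, and without the top cells its ratio was -1.37.

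The progenitor or alveolar list leaned the other way as a whole. Of its 20 genes, 15 were at least 4-fold lower in Ly6d-high cells, beside 9.02% of all genes, and 0 were 4-fold higher, beside 11.6%, and 18 reached 10 CPM in at least 1 class. The median over all 20 stood at -2.83 on the log2 scale, with 19 below 0. Of the 8845 genes at 10 CPM or more, 4085 lay below 0. Lcn2 (lipocalin 2, an iron-trapping defence protein) had 0, 0 and 583 CPM in the lowest, median and highest Ly6d-high cell and 0, 102 and 9514 CPM in the Ly6d-0 class. Its summed levels were 35.7 CPM (33.5 to 38.1) and 1452 CPM (1432 to 1472), a log2 ratio of -5.16. Trf (transferrin) had 246 and 5489 CPM, and Wfdc18, a small secreted protein with a whey acidic protein domain, 289 and 5732 CPM. Each of these was absent from the median Ly6d-high cell, and the highest Ly6d-0 cells reached 40892 CPM for Trf and 72717 CPM for Wfdc18.

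Other members were read in fewer cells. Sox10, a transcription factor of the neural crest and of some mammary progenitors, had 1.58 and 55.0 CPM in 4 and 7 cells. Cldn1, a tight junction protein, had 1.25 and 83.4 CPM in 2 and 7 cells. Cd14, a receptor for bacterial lipopolysaccharide, had 23.5 and 316 CPM in 5 and 10 cells. Aldh1a3, an enzyme of retinoic acid synthesis, had 23.5 and 162 CPM in 4 and 8 cells. Without the top cells, Cd14 had 7.26 and 123 CPM and Aldh1a3 0.489 and 89.0 CPM, since cell 27 held 69.9% and cell 76 held 98.0% of the Ly6d-high reads. Cd55, a regulator of complement, had 43.0 and 787 CPM, of which 56.7% came from a single Ly6d-0 cell, cell 58. This cell also carried fibroblast genes. Ehf and Itgb3 differed by less than 4-fold, with log2 ratios of -0.49 and -0.45. Cell 134 held 47.6% of the Ly6d-0 reads of Ehf and cell 114 held 88.2% of those of Itgb3, and without the top cells the ratios were 0.02 and 0.66. Lypd3, itself of the Ly6 protein family, was the exception, at 36.6 and 11.2 CPM.

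Milk protein genes were concentrated in few cells of the Ly6d-0 class. Of 12 listed genes, 9 reached 10 CPM, and 8 of these were 4-fold lower with Ly6d, beside 9.02% of all genes, and 0 higher. The median log2 ratio of the 12 was -2.85, which moved to -1.02 when the top cell of each gene was left out of each class. Csn3 (kappa-casein) was the most widespread, with 0, 399 and 53757 CPM in the lowest, median and highest Ly6d-0 cell, a summed 447 CPM (439 to 455) against 8567 CPM (8518 to 8617), and 21.3% (10.7 to 35.7) against 53.8% (33.4 to 73.4) of thinned cells, 21.3% and 61.5% unthinned. Csn1s1 (alpha-S1-casein) had 0.588 and 1263 CPM in 3 and 6 cells, with 61.0% of the latter in cell 85. Spp1 (osteopontin) had 0.882 and 2090 CPM in 2 and 7 cells, with 84.0% of the Ly6d-0 reads in cell 80. Lalba (alpha-lactalbumin) had 52.0 and 566 CPM in 2 and 6 cells. Csn2 (beta-casein) and Csn1s2a had 418 and 108 CPM in the Ly6d-0 class, all from cell 85. No Ly6d-high cell had a Csn2 read, for which a limit of 3 in 47 cells allows a share of up to 6.38%. The exact binomial interval for 0 of 47 cells allows up to 7.55%.

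Csn1s1, Csn2 and Csn1s2a lie together on chromosome 5, and the windows around their starts hold the letters TTCNNNGAA, a sequence known to be bound by STAT5 downstream of prolactin, so they are shown here. The windows below run from 250 bases before to 50 bases after the RefSeq start in GRCm38.p6 and are printed 5′ to 3′ on the gene's own strand, with TTCNNNGAA in capitals. For a gene with several windows, the window with most matches was chosen. In Csn1s2a the match begins at base 271 of the window, which is after the start. Those of Csn1s1 (chr5:87665958-87666257) and Csn1s2a (chr5:87774200-87774499) are on the plus strand and that of Csn2 (chr5:87699376-87699675) is on the minus strand.
Csn1s1: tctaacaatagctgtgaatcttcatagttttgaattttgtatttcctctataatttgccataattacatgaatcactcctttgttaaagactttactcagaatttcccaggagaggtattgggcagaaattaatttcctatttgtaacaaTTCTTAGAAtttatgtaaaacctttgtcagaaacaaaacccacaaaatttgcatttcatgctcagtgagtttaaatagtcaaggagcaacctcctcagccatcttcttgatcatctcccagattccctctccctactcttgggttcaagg
Csn2: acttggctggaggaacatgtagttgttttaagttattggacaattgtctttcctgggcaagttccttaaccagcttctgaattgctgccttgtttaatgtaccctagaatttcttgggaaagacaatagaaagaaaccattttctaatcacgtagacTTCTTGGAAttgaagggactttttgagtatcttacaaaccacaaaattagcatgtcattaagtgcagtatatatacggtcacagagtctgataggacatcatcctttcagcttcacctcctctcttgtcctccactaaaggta
Csn1s2a: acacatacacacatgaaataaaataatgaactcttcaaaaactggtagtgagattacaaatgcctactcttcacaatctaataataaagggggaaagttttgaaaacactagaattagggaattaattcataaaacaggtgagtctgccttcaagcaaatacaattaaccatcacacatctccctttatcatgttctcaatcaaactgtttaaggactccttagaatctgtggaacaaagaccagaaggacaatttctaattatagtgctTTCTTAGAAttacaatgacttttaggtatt
TTCNNNGAA reads the same on both strands. It was present in 8.30% of all 32851 windows of that length, or in at least 1 window of 9.55% of genes. Of the milk protein list 4 of the 8 genes with a window held it, the fourth being Glycam1, which had no read in either class. Of the progenitor or alveolar list 1 of 12 held it (Bcl11a), and of the hormone-sensing list 4 of 16 (Prlr, Esr1, Esrrb and Fgb). A match of letters does not show binding.

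Innate defence genes were found on both sides, in numbers that for the higher genes lay near the 11.6% of all genes (9.02% for lower genes). Of 15 genes, Slpi and Il33 were 4-fold higher with Ly6d, and Lcn2, Ltf, Cd14 and Hp 4-fold lower, 3 of which are also on the progenitor or alveolar list. Il33, an alarmin cytokine, had 0, 1975 and 15210 CPM in the lowest, median and highest Ly6d-high cell and 0, 47.5 and 3713 CPM in the Ly6d-0 class, with summed levels of 2810.4 CPM (2790.5 to 2830.4) and 409 CPM (398 to 420). Its log2 ratio was 2.77 and it was detected in 89.4% (76.9 to 96.5) and 53.8% (33.4 to 73.4) of thinned cells, or 91.5% and 57.7% unthinned. Slpi, a protease inhibitor of secretions, had 687 CPM in the median Ly6d-high cell and 0 in the median Ly6d-0 cell, with summed levels of 2887 and 403 CPM and a log2 ratio of 2.82. The chemokine gene Cxcl1 had 177 and 664 CPM, a log2 ratio of -1.88. For Hp (haptoglobin), 98.8% of the Ly6d-0 reads came from cell 85, and without the top cells the log2 ratio was 0.75 in place of -3.26.

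Gata3, the factor of luminal identity, stood level. It had 421 and 496 CPM in the median cell and summed levels of 620 CPM (611 to 629) and 633 CPM (620 to 646), and every cell of both classes carried a read. Sox9 had 2366 and 1445 CPM, and Runx1 746 and 583 CPM. Elf3 had 132 and 64.0 CPM, with 92.4% of the Ly6d-0 reads in cell 80. Of the 20 factors listed, Msx2 was 4-fold higher, at 26.6 and 0.518 CPM, and Elf5, Sox10, Hey1, Id2 and Foxi1 were 4-fold lower, beside 11.6% higher and 9.02% lower of all genes. Id2, an inhibitor of bHLH factors, had 26.6 and 177 CPM. For Hey1 and Foxi1, 89.9% and 99.0% of the Ly6d-0 reads came from a single cell. Of the 13 Notch genes, 8 of which reached 10 CPM, Hey1 was the single one past 4-fold, again beside those shares of all genes. Jag1, a Notch ligand, had 1358 and 820.5 CPM, Notch2 102 and 193 CPM, and the target Hes1 131 and 170 CPM.

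Seen cell by cell, the Ly6d-0 class was not of 1 kind. Thinned to 100000 reads, Ly6d-high cells detected 5 to 15 of the 20 hormone-sensing genes (median 10) and 0 to 12 of the 20 progenitor or alveolar genes (median 2). Ly6d-0 cells detected 1 to 11 (median 5) and 0 to 15 (median 4). In the Ly6d-0 class 9 of 26 cells held 8 or more progenitor genes (34.6%, 17.2 to 55.7), and all 9 held 5 or fewer hormone-sensing genes. Another 9 held 7 or more hormone-sensing genes and 3 or fewer progenitor genes, the pattern of 32 of the 47 Ly6d-high cells. No Ly6d-0 cell held both 7 or more hormone-sensing and 8 or more progenitor genes, for which the exact interval allows up to 13.2% of cells. These limits of 8, 7 and 3 genes were chosen after the values were seen. The name progenitor or alveolar type covers only part of the class, which is why the cells are called by their Ly6d count here.

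**Figure D2:**
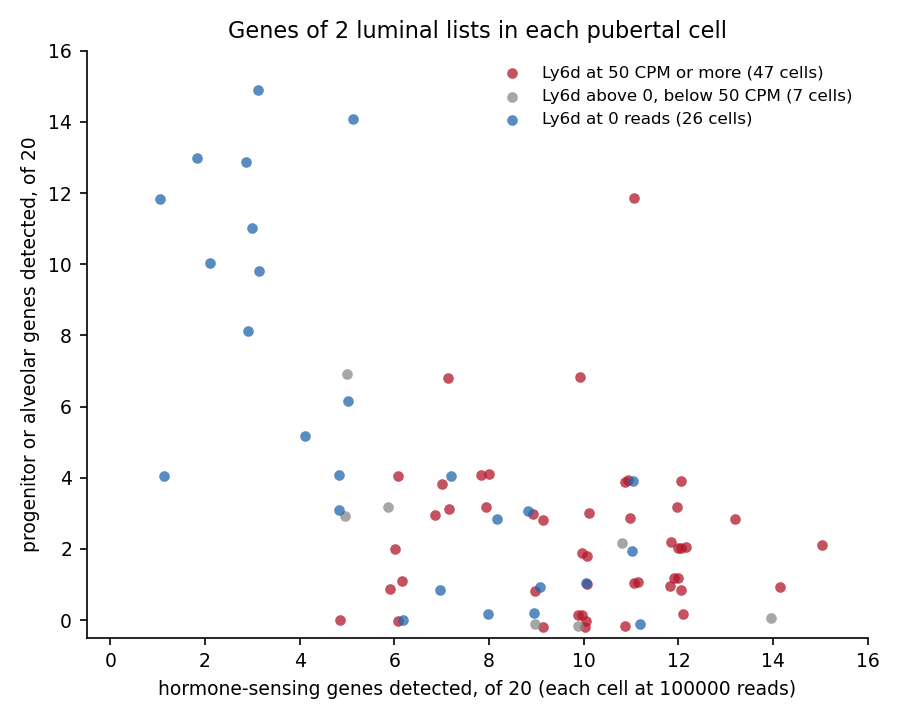
Number of the 20 hormone-sensing genes (x axis) and of the 20 progenitor or alveolar genes (y axis) detected in each of the 80 pubertal luminal cells at 100000 reads, with small random shifts so that points do not hide each other. The 9 Ly6d-0 cells (blue) with 8 or more progenitor genes lie at the upper left with 5 or fewer hormone-sensing genes, and 9 others lie among the Ly6d-high cells (red) at the lower right.

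The 9 Ly6d-0 cells rich in progenitor genes are described by genes outside that list, as a description only. Csn3 ran from 1247 to 53757 CPM in them, with a median of 7822, against a median of 0 in the 11 Ly6d-0 cells with 3 or fewer progenitor genes. Igfbp5, an insulin-like growth factor binding protein, ran from 754 to 14594 CPM (median 5806) against 0 to 1154 CPM (median 5.81). Egr1, an immediate early factor, had medians of 1191 and 25.1 CPM. In the other direction Areg ran from 0 to 10.3 CPM in the 9 cells and from 24.7 to 4267 CPM (median 1393) in the 11, without overlap. Il33 ran from 0 to 44.1 CPM in the 9 and from 62.7 to 3713 CPM (median 964) in the 11, again without overlap. Ptn (pleiotrophin) had medians of 9.28 and 2306 CPM, and Prlr of 269 and 3701 CPM. Among the 11, Pgr was read in 4 cells and Esr1 in 5. Among the 9, neither was read in any cell, a number too small to show absence. The remaining 6 cells had 4 to 7 progenitor genes.

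Prlr and Csn3 seldom stood at 1000 CPM or more in the same cell, a level chosen after the values were seen. Prlr reached it in 36 of 47 Ly6d-high and 13 of 26 Ly6d-0 cells, and Csn3 in 3 and 11 cells, but both did so in a single cell of each class. The Ly6d-high cell was cell 27, which had Ly6d at 1332 CPM, 11 hormone-sensing and 12 progenitor genes, Prlr at 5809, Csn3 at 7921, Wfdc18 at 9590 and Trf at 6915 CPM. This cell held 64.1% of the Trf reads of the Ly6d-high class and 75.9% of its Wfdc18 reads. Both genes keep low ratios without it, at -5.34 and -5.67 without the top cell of each class.

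**Figure D3:**
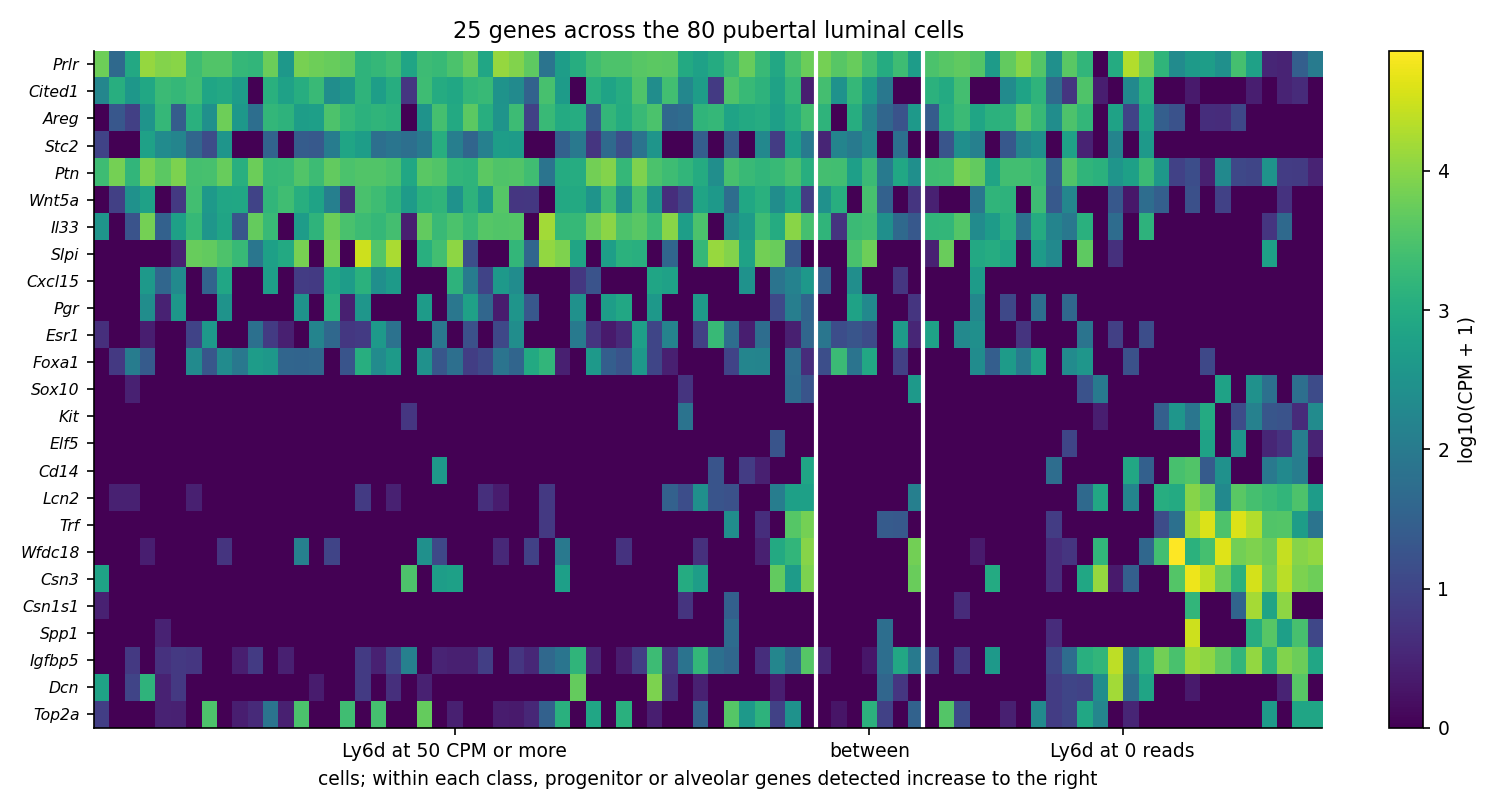
Levels of 25 genes, as log10(CPM + 1) on a colour scale, in the 80 pubertal luminal cells (columns), grouped by Ly6d class and ordered within each class by the number of progenitor or alveolar genes detected. Within the Ly6d-0 class, Areg and Il33 are high at the left, where Csn3, Lcn2 and Trf are near 0, and the pattern turns over towards the right.

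The 7 cells with a trace of Ly6d, from 3.04 to 24.0 CPM, detected 5 to 14 hormone-sensing genes (median 9) and 0 to 7 progenitor genes (median 2). Prlr stood at 3575 CPM and Cited1 at 725 CPM in their sum, Pgr was read in 3 of 7 cells and Esr1 in 6, and neither Kit nor Elf5 had a read, which in 7 cells cannot show absence. Csn3 was read in a single cell. In 3 of the 7 cells, 7 or more of the 15 basal genes were detected, as in 4 of 47 Ly6d-high and 4 of 26 Ly6d-0 cells.

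The largest ratios were sought among genes that reached 100 CPM in the higher class and were seen there, after thinning, in 50% of cells or more. Next to Ly6d itself, the highest were Itih2 (591 and 20.9 CPM, log2 ratio 4.53), a component of hyaluronan-bound matrix, Phyh (286 and 21.2 CPM, 3.47), an enzyme of phytanic acid breakdown in peroxisomes, and Dhx40 (378 and 32.9 CPM, 3.34), a putative RNA helicase. Itih2 was read in 34 of 47 and 8 of 26 cells, and 94.7% of its Ly6d-0 reads were in cell 114. Pttg1ip, Dnajc1, the desmosomal cadherin Dsc2, the helicase Dhx36, the aryl hydrocarbon receptor Ahr and Mettl26 followed, with log2 ratios of 2.98 to 3.27. At the other end were Lcn2, Igfbp5, Wfdc18 and Csn3, with log2 ratios of -4.25 to -5.16, then Celf2, an RNA-binding protein (31.1 and 322 CPM, -3.18), Nop53 (19.8 and 202 CPM, -3.06), the calcium-gated chloride channel Ano1 (18.1 and 171 CPM, -2.93), the matrix protein Ccn1 (49.5 and 345 CPM, -2.68), Tmem9 and Nrg1. Igfbp5 had 3.42 CPM in the median Ly6d-high and 1187 CPM in the median Ly6d-0 cell. The cell with most Igfbp5 reads was cell 58, at 24076 CPM, which also carried fibroblast genes. Without the top cells the ratio was -4.52.

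Over all genes, 1026 of 8845 were at least 4-fold higher with Ly6d and 798 at least 4-fold lower. Much of this rested on single cells. For 670 of the 798 lower genes (84.0%) a single Ly6d-0 cell held more than 50% of the class's reads, and for 487 of the 1026 higher genes (47.5%) a single Ly6d-high cell did. When the top cell of each gene was left out of each class, 951 genes were higher and 242 lower, and 563 and 204 of the original genes were still past 4-fold. The 6443 genes at 10 CPM or more without the top cells had a median log2 ratio of 0.58, against 0.13 for the 8845 with all cells. When log2(CPM + 5) was averaged over cells instead of summing reads, 92 genes were higher and 9 lower.

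Genes the study itself grouped as its luminal clusters I and II on overlapping cells are not independent evidence, but their values show how far these gene groups reached. Of 29 cluster I genes, with Ly6d and Krt18 left out, 5 were 4-fold higher, beside 11.6% of all genes, and 0 lower, with a median log2 ratio of 0.88. Ptn had 3246 and 1230 CPM, and Crym, a thyroid hormone binding protein, 489 and 102 CPM. Of 23 cluster II genes 16 were 4-fold lower, beside 9.02% of all genes, and 0 higher, with a median of -3.33. They include the potassium channel Kcnn4 (3.75 and 167 CPM) and the chloride channel gene Clic6 (0.478 and 121 CPM).

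Markers of other cells were looked at beside these results. Immune genes summed to 2.06 CPM or less in any cell of both classes, with Cd3e, Cd79a, Lyz2, Csf1r, Cd52 and Tyrobp at 0. The 6 endothelial genes had a median of 0 CPM in both classes, with a highest cell at 1039 CPM in the Ly6d-high and 547 CPM in the Ly6d-0 class, and the 8 Schwann cell genes also had medians of 0 and highest cells at 352 and 450 CPM. The 9 fibroblast genes summed to 0 to 22974 CPM in Ly6d-high cells (median 4.34) and 0 to 40790 CPM in Ly6d-0 cells (median 10.1), where cell 58 carried all 9 genes and cell 120 carried 8. Dcn (decorin) had 382 and 1170 CPM, 79.9% of the latter in cell 58. Without the 3 Ly6d-high and 2 Ly6d-0 cells that detected 5 or more fibroblast genes, 1091 genes were higher and 809 lower. The 15 basal genes summed to 0 to 4277 CPM (median 11.6) and 0 to 9091 CPM (median 83.5). Of the 15, Krt17, Snai2, Oxtr and Tpm2 were 4-fold lower with Ly6d and 0 were higher, beside 9.02% and 11.6% of all genes. For the first 3 of them a single Ly6d-0 cell held over 96% of the reads.

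Genes of the cell cycle were read in both classes. None of 12 differed 4-fold, beside 11.6% higher and 9.02% lower of all genes. The median log2 ratio of the 12 was 0.74, where that of all genes was 0.13. Top2a, a topoisomerase of dividing cells, had 572 and 168 CPM, with 34.0% (20.9 to 49.3) and 34.6% (17.2 to 55.7) of thinned cells positive, and 57.4% and 46.2% unthinned. Mki67 had 146.1 and 56.1 CPM, with 58.2% of the Ly6d-0 reads in cell 135. Of 12 cell cycle genes, 6 or more were detected in 13 of 47 and 7 of 26 cells. Of 12 immediate early genes, 11 differed by less than 4-fold and 1 was 4-fold lower, near the 9.02% of all genes. That gene was Dusp1 (45.9 and 207 CPM), with 60.3% of the Ly6d-0 reads in cell 58. Egr1 had 305 and 968 CPM and Fos 1070 and 1393 CPM.

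The same rule gave 22 luminal cells of the adult gland, of which 14 were Ly6d-high, 6 Ly6d-0 and 2 between. Ly6d ran from 108 to 6759 CPM in the 14 cells, with a median of 3422. In the adult the hormone-sensing list was further apart, with 12 of 20 genes 4-fold higher and a log2 median of 2.87, but 38.6% of the 7005 genes at 10 CPM or more were 4-fold higher and 19.4% 4-fold lower, and the median of all genes was itself shifted to 1.25. Cited1 had 1850 and 12.5 CPM, Stc2 666 and 1.39 CPM, and Cxcl15 1011 and 0.462 CPM. Esr1 and Foxa1 had 118 and 126 CPM in Ly6d-high cells and no read in the 6 Ly6d-0 cells. Without its top cell Esr1 had 14.5 CPM. Prlr had 9602 and 2892 CPM, a log2 ratio of 1.73 beside that median of 1.25, and was read in 14 of 14 and 5 of 6 cells. Without the top cell of each class its ratio was 4.24. No median of all genes is given for adult ratios without the top cells.

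Progenitor and milk genes were again lower in the Ly6d-high cells of the adult, but casein reads were found in both classes. Of all genes 4-fold lower at puberty and at 10 CPM or more in the adult, 197 of 382 (51.6%) were lower there too. Among all adult genes at 10 CPM or more, 2673 of 7005 lay below 0. Kit had 1.55 and 184 CPM, Lcn2 235 and 3814 CPM, Wfdc18 318 and 5225 CPM, and Csn3 2066 and 12755 CPM. Csn1s1 had 1107 and 15584 CPM and was read in 10 of 14 and 5 of 6 cells, where at puberty it was read in 3 of 47 and 6 of 26. The casein levels of the adult Ly6d-high class rested on single cells. Without the top cell of each gene they were 131 CPM for Csn1s1, 353 CPM for Csn3 and 16.2 CPM for Csn2, which had 1689 CPM with it. The top cells were cell 21 for Csn1s1 and Csn2 and cell 32 for Csn3, both with 10 progenitor genes. Csn2 was read in 7 of 14 and 6 of 6 adult cells. Of the milk list 9 genes were 4-fold lower and 0 higher, with a median of -2.77. The progenitor list had 7 genes 4-fold lower, 0 higher and a median of -1.35, which became 0 without the top cells. Of all 7005 adult genes at 10 CPM or more, 19.4% were 4-fold lower and 38.6% higher, with a median of 1.25 with all cells. Cd55 had 338 and 173 CPM in the adult, where its ratio was 0.95, against -4.05 at puberty, and this difference was not tested. Single cells carried both adult values, which were 70.5 and 0.543 CPM without the top cells, a ratio of 3.77. At puberty the ratio of Cd55 ran from -0.96 to -4.20 over the 16 alternatives of the closing section. It stayed past 4-fold in 15 of them. The adult Ly6d-0 class was mixed as well, with 3 of 6 cells holding 8 or more progenitor genes and the other 3 holding 3 or fewer. Among the latter, cell 45 carried all 9 fibroblast genes and cell 51 immune genes at 2478 CPM. Of the 14 Ly6d-high cells, 2 held 8 or more progenitor genes.

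**Figure D4:**
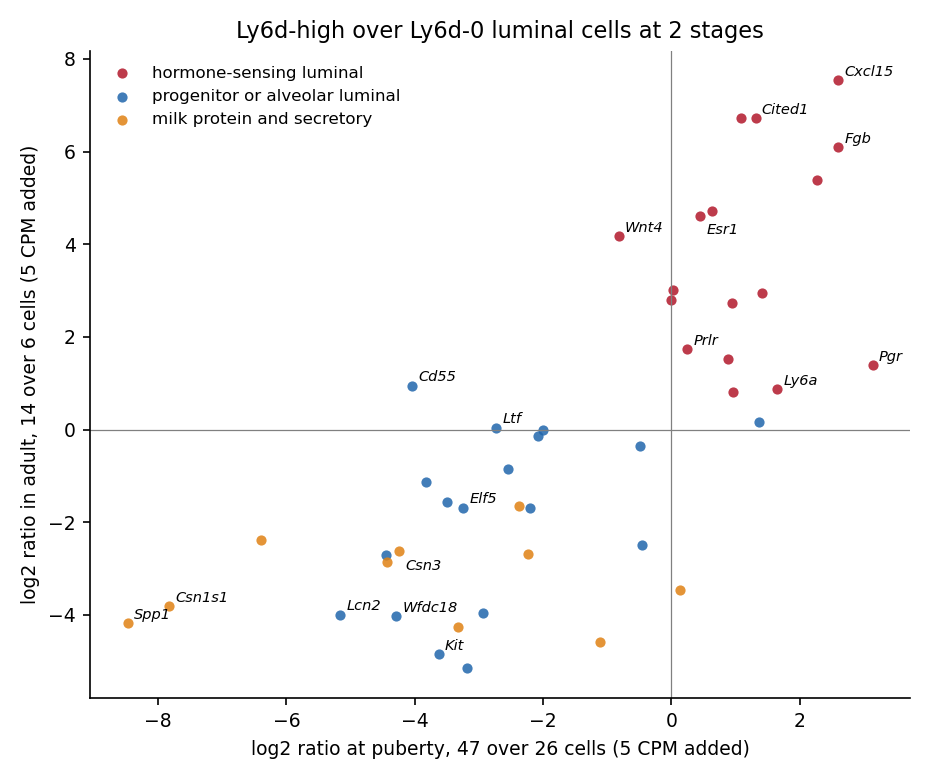
Log2 ratio of Ly6d-high over Ly6d-0 luminal cells at puberty (x axis, 47 and 26 cells) and in the adult (y axis, 14 and 6 cells), after adding 5 CPM to both values, for the hormone-sensing (red), progenitor or alveolar (blue) and milk protein (orange) genes at 10 CPM or more at either stage. Lcn2, Wfdc18, Kit and Csn3 are low at both stages and Cxcl15 is high at both. With all cells Cd55 is at -4.05 at puberty and 0.95 in the adult. Cd55 is at 3.77 in the adult without the top cells, and at puberty it ran from -0.96 to -4.20 over 16 alternatives.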

How the data were processed

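Single cells sorted from mammary glands were captured on Fluidigm C1 chips, which amplify full-length cDNA without molecular identifiers, so a molecule can be counted many times. The submitters' processing notes name Subread 1.4.6, featureCounts and mm10, and the deposited values are the authors' raw counts of read pairs per Entrez gene, called reads here. The version of featureCounts and its handling of shared reads are not given in the sources used here. The deposited gene lengths, another column of the authors' files, were used only for RPKM. No 2 cells had identical counts.

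Genes without a RefSeq symbol (1904, with 1.41% of reads), 15 mitochondrial and 121 ribosomal protein genes were removed from 27179, leaving 25139. The pubertal luminal cells held 127261 to 1170756 reads each on these genes. Reads were summed per class (27221824 and 13513797 reads). Log2 ratios are log2((a + 5)/(b + 5)) of CPM, which understates the change of low genes, and calls are 4-fold among genes at 10 CPM or more. A count of 0 allows up to 3. No doublet caller was run, since the study inspected each chamber by microscope. No test was made, because cells are not replicates. Of 231 listed genes all matched, Tmem56 as Tlcd4, and 1 of them is not reported here by name. The classes, lists and rule for named genes (rule and list genes, and the 10 largest ratios each way) were chosen with earlier results of these data known. Functions were tested on simulated cells that shared a profile within each class. Such cells do not vary as real ones do, so the test does not cover genes carried by a single cell. Python 3.11.15, pandas 2.3.3, SciPy 1.17.1 and, for TMM factors as an alternative only, R 4.3.3 with edgeR 4.0.16 were used. Another alternative used median-of-ratios factors, and the closing section gives the effect of all of them. Promoter windows are from RefSeq, GRCm38.p6.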

Additional observations from a re-analysis of the deposited data

Results flagged for a closer look

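Ly6d was not confined to cells the rule called luminal. Of the 29 pubertal cells past the coverage filter with Krt14 above 40 RPKM, 12 had Ly6d at 50 CPM or more (41.4%, exact binomial 95% interval 23.5 to 61.1), from 111 to 6390.1 CPM with a median of 1006, and all 12 also had Krt8 or Krt18 above 40 RPKM. They stand out because they were outside the comparison. Of 10 cells with none of the 3 keratins above the threshold, 0 had Ly6d at that level, and of 17 cells below the coverage filter 2 had.

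Of the genes named here, 3 were past 4-fold in opposite directions at the 2 stages. A change of sign was common over all genes past 4-fold at puberty and at 10 CPM or more in the adult. Of 577 such higher genes 394 (68.3%) kept their sign in the adult, and of 382 lower genes 197 (51.6%) did. Of all 7005 genes at 10 CPM or more in the adult, 4332 lay above 0 and 2673 below. Differences between the stages were not tested, since each stage is 1 sample. Hp had a log2 ratio of -3.26 at puberty and 2.93 in the adult, and at puberty 98.8% of its Ly6d-0 reads came from a single cell. Id2 had -2.52 and 4.10, with a single pubertal Ly6d-0 cell at 49.5% of the reads. Dhx36 had 3.07 and -2.25. The adult median of all genes stood at 1.25.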

How the results depend on the processing

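No paired analysis was possible because the cells of a class share only a running number and no cell is assigned to a mouse. The counts of cells (45 to 49 Ly6d-high, 24 to 38 Ly6d-0 under other thresholds and filters) stayed within 1.5 times. Adding 1 CPM in place of 5 gave 1642 genes higher and 1156 lower. Averaging log2(CPM + 5) over cells gave 92 and 9 genes, and list medians of 1.55 (hormone-sensing) and -1.12 (progenitor), on a scale where all genes had a median of 0.53. Without the top cell of each gene 242 genes were lower and all genes had a median of 0.58. Csn1s2a moved to 0.01, Hp to 0.75 and, as an alternative added after the data were seen, the adult progenitor median to 0. The other alternatives (equal weight for cells, thinning, TMM or median-of-ratios scaling, Ly6d at 10 or 200 CPM, all cells below 50 CPM as the low class, keratins at 20 or 80 RPKM, other cell filters and no filter on low genes) kept the gene counts within 1.5 times and the signs of the 3 list medians. So did leaving out cells with 5 or more fibroblast or 7 or more basal genes, 2 alternatives added after the data were seen. Of 47 named genes past 4-fold, 44 kept their sign in all 16 alternatives and 13 stayed past 4-fold in all. With 128856 to 925936 reads per Ly6d-0 cell, genes read in few of the 26 cells rest on those cells, and a mouse, sort or chip behind a class cannot be told apart from it.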
